A study of Rattus norvegicus with 9 samples.

Results

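The 10 genes described here encode actin filaments of smooth muscle and the proteins that bind them, with desmin of the intermediate filaments: Acta2, Actg2, Tagln, Cnn1, Cald1, Lmod1, Smtn, Tpm1, Tpm2 and Des. They were chosen as a list of named genes, and every non-control probe whose transcript accession maps to 1 of these rat symbols was taken. This gave 15 of the 30367 probes of the array, and 10 of the 15168 genes with a probe of a single symbol. Actg2, Cald1, Lmod1, Smtn and Tpm1 had 2 probes each, and the other members had 1.

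The RNA came from the bladder of female rats at 3 weeks and was hybridised to 9 Agilent arrays with the single dye Cy3. The array titles give 3 arrays to sham operation, in which the urethra was not tied. Another 3 belong to partial bladder outlet obstruction (pBOO), where a ligature narrowed the proximal urethra around a catheter of 1 mm outer diameter, and 3 to pBOO with tolterodine, a blocker of muscarinic acetylcholine receptors. The labels mention 5 specimens per group but do not give the age of the rats, the dose of the drug, or whether an array holds 1 animal or a pool, so p-values measure the spread between these arrays.

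Smooth muscle cells of the bladder wall shorten when myosin pulls on thin filaments, which are polymers of actin with tropomyosin lying along them. Caldesmon and calponin bind these filaments and can restrain the myosin, transgelin and smoothelin are other actin-binding proteins, and leiomodin starts new filaments. Desmin filaments tie the contractile apparatus together between dense bodies. Many of these genes are switched on by serum response factor with its partner myocardin, through an element called the CArG box, and TEA domain factors act through CATTCC.

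Promoters of 8 members, 9 windows in all, were found in the RefSeq table of the rat assembly GRCr8. Tagln and Lmod1 had none there, so the motif counts below do not cover them. Each window runs from 250 bases before to 50 bases after the annotated start. The sequences of 3 are shown because they span the responses described below: the change of Acta2 depended on how the arrays were scaled, whereas Tpm1 and Cnn1 rose under each setting that gave them a value. Capitals mark matches to a CArG box with 1 inner base off, and to CATTCC, which reads GGAATG where it lies on the other strand.
Acta2 (chr1:241172454-241172753, minus strand): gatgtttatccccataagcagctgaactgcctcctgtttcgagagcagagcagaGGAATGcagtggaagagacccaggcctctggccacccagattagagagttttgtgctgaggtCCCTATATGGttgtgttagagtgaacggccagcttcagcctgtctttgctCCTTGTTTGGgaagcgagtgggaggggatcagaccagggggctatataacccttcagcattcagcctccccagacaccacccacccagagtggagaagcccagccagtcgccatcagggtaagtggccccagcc
Tpm1 (chr8:76543366-76543665, minus strand): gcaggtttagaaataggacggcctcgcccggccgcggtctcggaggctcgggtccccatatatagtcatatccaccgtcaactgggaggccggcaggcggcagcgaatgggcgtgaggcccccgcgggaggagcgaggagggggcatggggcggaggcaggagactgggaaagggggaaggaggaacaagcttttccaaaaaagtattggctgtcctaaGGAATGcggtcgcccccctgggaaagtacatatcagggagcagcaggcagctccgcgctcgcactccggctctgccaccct
Cnn1 (chr8:28908187-28908486, plus strand): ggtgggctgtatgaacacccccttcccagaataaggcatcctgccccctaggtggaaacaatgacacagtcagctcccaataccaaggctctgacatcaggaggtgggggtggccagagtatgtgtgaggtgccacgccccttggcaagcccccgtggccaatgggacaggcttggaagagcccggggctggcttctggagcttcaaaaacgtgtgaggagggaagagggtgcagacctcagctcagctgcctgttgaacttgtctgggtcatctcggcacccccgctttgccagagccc
The CArG-like matches of Acta2 are CCCTATATGG, starting 134 bases before the start site, and CCTTGTTTGG, starting 84 bases before it. On both strands, 0 of the 9 windows held a CArG box with every base in place, a motif present in 1.64% of all 33469 promoter windows of that length. Of the 8 members, 1 held the form with an inner base off, which 8.1% of all windows hold. The letters CATTCC were found in 3 members, Acta2, Cald1 and Tpm1, against 14.2% of all windows. The letters TATAAA were found in 1, Cald1, again against 14.2%. No match in these windows overlapped another.

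All 10 members were well above background on all 9 arrays, and no spot of theirs was marked as saturated. Over the 15 probes and 9 arrays there were 135 spots, and 40 of them carried a quality flag. Each of the 40 flags was for the local background around the spot, and 0 were for the spot itself. The spots at stake were bright against that background. The Tagln spot was flagged on every array, yet its intensity was between 28146 and 102487 where the local background lay between 23 and 35.5. The values below are therefore given with flagged spots removed and with them kept. With flags removed 6 members could be tested, Acta2, Cnn1, Cald1, Lmod1, Smtn and Tpm1, whereas Actg2, Tagln, Tpm2 and Des had values in too few arrays. With flags kept all 10 were tested. For Smtn and Tpm1 the choice also changed the probe that stands for the gene, since the brighter one was flagged on most pBOO arrays.

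Levels are log2 intensities relative to the 75th percentile of the spots of the same array, so 0 is that percentile, and changes are differences of these levels (log2 fold changes). Their standard error (SE) comes from a limma fit across all genes. A gene rose or fell where its p, adjusted by Benjamini-Hochberg over all genes tested, was under 0.05. The sign of each change follows the array titles. The letters that the treatment protocol gives to obstruction and to sham operation are exchanged in the sample codes of those arrays. If the names of sham and pBOO were exchanged, every pBOO minus sham value below would change its sign, and the comparisons of tolterodine with pBOO and with sham would change places.

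In obstructed bladders, the genes for caldesmon, leiomodin, smoothelin, calponin and tropomyosin 1 rose, from 2.31-fold for Cnn1 to 10.4-fold for Lmod1. Transgelin rose 1.71-fold with flags kept. The smooth muscle actins, tropomyosin 2 and desmin did not pass the test on this scale. With flagged spots removed, 5 of 6 members tested rose and 0 fell, with a median change of 1.91 against -0.04 over all 11047 genes, of which 20.8% rose and 21.7% fell. With flagged spots kept, 6 of 10 rose and 0 fell, with a median of 0.87 against -0.04 over 11636 genes, of which 20.5% rose and 22.9% fell. Groups did not overlap for 9 of 10 members with flags kept, 8 of them higher in pBOO, against 25.3% of all genes higher without overlap, and 1, Actg2, lower, against 30.4%.

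**Figure D1:**
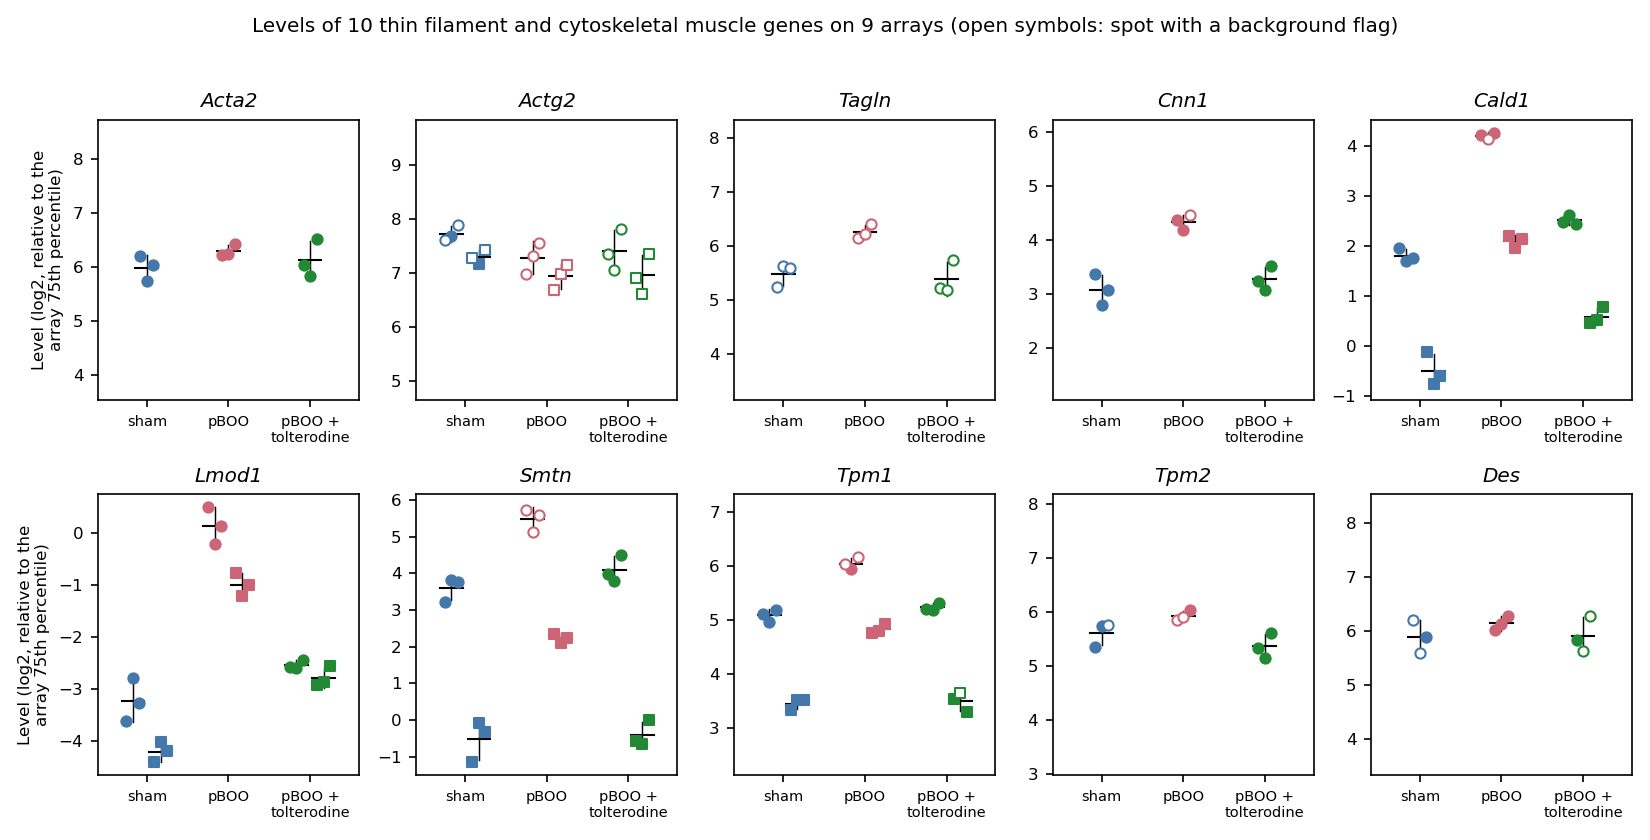
Levels of the 10 members on each array (vertical axis, log2 relative to the 75th percentile of the array) by group (horizontal axis). Circles are the brighter or single probe and squares the dimmer probe, open symbols are spots with a background flag, and bars show the mean and SD of 3 arrays with flagged spots kept. The 3 pBOO arrays lie above the other arrays for Cald1, Lmod1, Smtn, Tpm1, Cnn1 and Tagln, while the groups lie close together for Acta2 and Des.

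Among the regulators, Lmod1, which encodes leiomodin 1, a nucleator of actin filaments in smooth muscle, changed most among the members on this scale. Its brighter probe had levels of -3.63, -2.80 and -3.27 on the sham arrays and 0.51, -0.21 and 0.15 on the pBOO arrays. With tolterodine the levels were -2.59, -2.60 and -2.43. No pBOO array came within 2 log2 units of any other array. The change from sham to pBOO was 3.38 (SE 0.23, adjusted p = 2.45e-05), a 10.4-fold difference. Before scaling, the spot intensity was between 61.0 and 118 in sham and between 892 and 2048 in pBOO, where the local background over all arrays was 17 to 21. None of the 18 spots of the 2 Lmod1 probes was flagged, so flags had no part in this value, and the dimmer probe changed by 3.23 (SE 0.17). The size depended on the background correction. With the normexp method Lmod1 rose by 2.55, no more than Smtn at 2.57, and with tolterodine against pBOO they were at -2.21 and -2.50.

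Cald1 encodes caldesmon, an actin-binding inhibitor of the myosin ATPase. Its brighter probe stood at 1.97, 1.71 and 1.75 in sham and at 4.23, 4.14 and 4.27 in pBOO, where the second of these spots was flagged. The change was 2.44 (SE 0.13, adjusted p = 1.8e-05) with the flagged spot removed, a 5.43-fold difference, and 2.40 (SE 0.11, adjusted p = 4.17e-06) with it kept. The dimmer Cald1 probe, never flagged, had levels of -0.11, -0.76 and -0.61 in sham against 2.21, 1.97 and 2.14 in pBOO, a change of 2.60 (SE 0.18). Both probes thus separated all pBOO arrays from all sham arrays.

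Smtn encodes smoothelin, a cytoskeletal protein of contractile smooth muscle cells. The dimmer Smtn probe had no flag and stood at -1.15, -0.09 and -0.32 in sham and at 2.36, 2.08 and 2.24 in pBOO. This was a change of 2.75 (SE 0.28, adjusted p = 0.000146), or 6.71-fold. The brighter Smtn probe, flagged on all 3 pBOO arrays, read 3.22, 3.82 and 3.77 in sham against 5.73, 5.12 and 5.60 in pBOO. Its change was 1.88 (SE 0.25, adjusted p = 0.000508), or 3.67-fold. The probes gave the same direction, with sizes that differed by 0.87.

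Calponin 1 (Cnn1), which binds actin and slows its cycling with myosin, stood at 3.37, 2.80 and 3.07 in sham and at 4.37, 4.20 and 4.46 in pBOO, the last of them flagged. The change was 1.21 (SE 0.20, adjusted p = 0.00241) without the flagged spot and 1.26 (SE 0.17, adjusted p = 0.000663) with it. Transgelin (Tagln), an actin cross-linking protein and a common early marker of smooth muscle, was flagged on all arrays, so its values exist with flags kept alone. They were 5.24, 5.64 and 5.60 in sham and 6.15, 6.23 and 6.42 in pBOO. This change of 0.77 (SE 0.18, adjusted p = 0.0089) was 1.71-fold, and the groups did not overlap.

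The tropomyosins, rod-shaped dimers that lie along the actin filament, were unequal on this scale. The dimmer probe of Tpm1 had levels of 3.34, 3.51 and 3.51 in sham and 4.77, 4.80 and 4.92 in pBOO, a change of 1.37 (SE 0.12, adjusted p = 0.000128). Its brighter probe read 5.12, 4.97 and 5.18 against 6.03, 5.94 and 6.17, with the first and last of the pBOO spots flagged, a change of 0.96 (SE 0.11, adjusted p = 0.00029). The 2 probes were designed on different Tpm1 transcripts, and the gene has many spliced forms. Tpm2 had levels of 5.35, 5.73 and 5.75 in sham and 5.85, 5.89 and 6.03 in pBOO. These groups did not overlap, but the change of 0.32 (SE 0.16, 95% interval -0.05 to 0.68) did not pass the test (adjusted p = 0.139, flags kept).

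The smooth muscle actins showed smaller values. Acta2, the alpha actin shared by vascular and visceral smooth muscle, had no flagged spot. Its levels were 6.20, 5.74 and 6.04 in sham and 6.22, 6.24 and 6.42 in pBOO. The lowest pBOO array lay barely above the highest sham array, and the change of 0.30 (SE 0.19, 95% interval -0.14 to 0.74) missed the threshold (adjusted p = 0.242). Actg2, the gamma actin typical of visceral smooth muscle, had levels of 7.60, 7.67 and 7.89 in sham and 6.97, 7.32 and 7.56 in pBOO for its brighter probe, flagged on all arrays but sham 2. The value of -0.44 (SE 0.22, adjusted p = 0.131, flags kept) was below 0, as was that of the other probe (-0.35, SE 0.20). Desmin (Des) stood at 6.20, 5.59 and 5.89 in sham and 6.01, 6.13 and 6.28 in pBOO, with overlapping groups and a value of 0.24 (SE 0.20, adjusted p = 0.361, flags kept).

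**Figure D2:**
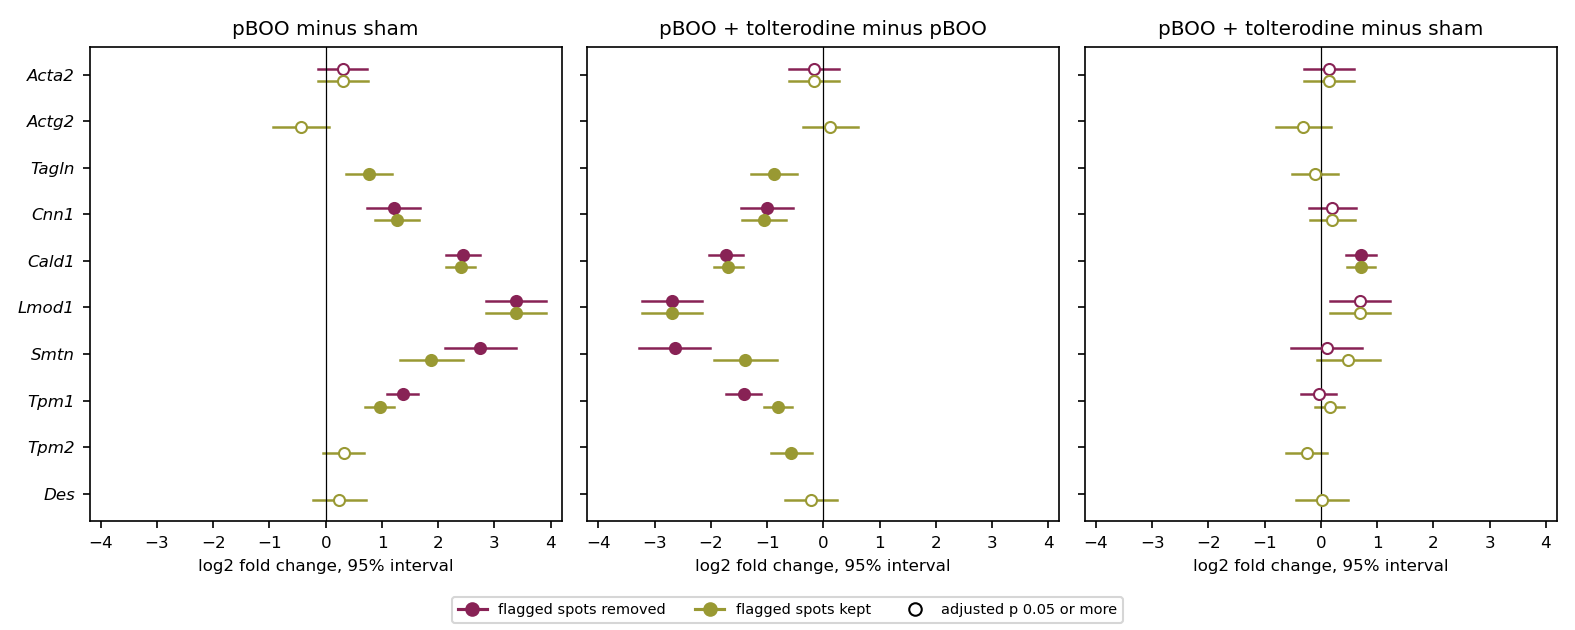
Log2 fold changes of the members (horizontal axis) with 95% intervals from the limma fit in the 3 comparisons, with flagged spots removed (purple) and kept (olive). Filled symbols passed the adjusted p threshold of 0.05. Acta2, Actg2, Tpm2 and Des lie near 0 in pBOO minus sham, the other members lie to its right, and 7 of the 10 fell with tolterodine when flags were kept.

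The values of the brightest members depended on the scaling, and change went with brightness across the whole array. Over all probes with flags kept, the median change from sham to pBOO was 0.10 for 10938 probes with a mean level below -2, and -0.02 for 4858 between -2 and 0. It was -0.41 for 1633 probes between 2 and 4, -0.64 for 385 between 5 and 6, and -0.64 for 238 at 6 or above. Of the 385 probes between 5 and 6, 6 rose and 308 fell, and the Tagln probe and the brighter Tpm1 probe were among the 6. Of the 238 at 6 or above, 0 rose and 191 fell. In the 2 top classes, where the medians were both -0.64, Acta2 at 0.30, Tpm2 at 0.32, Des at 0.24 and Actg2 at -0.44 and -0.35 each lay above the median of probes as bright.

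**Figure D3:**
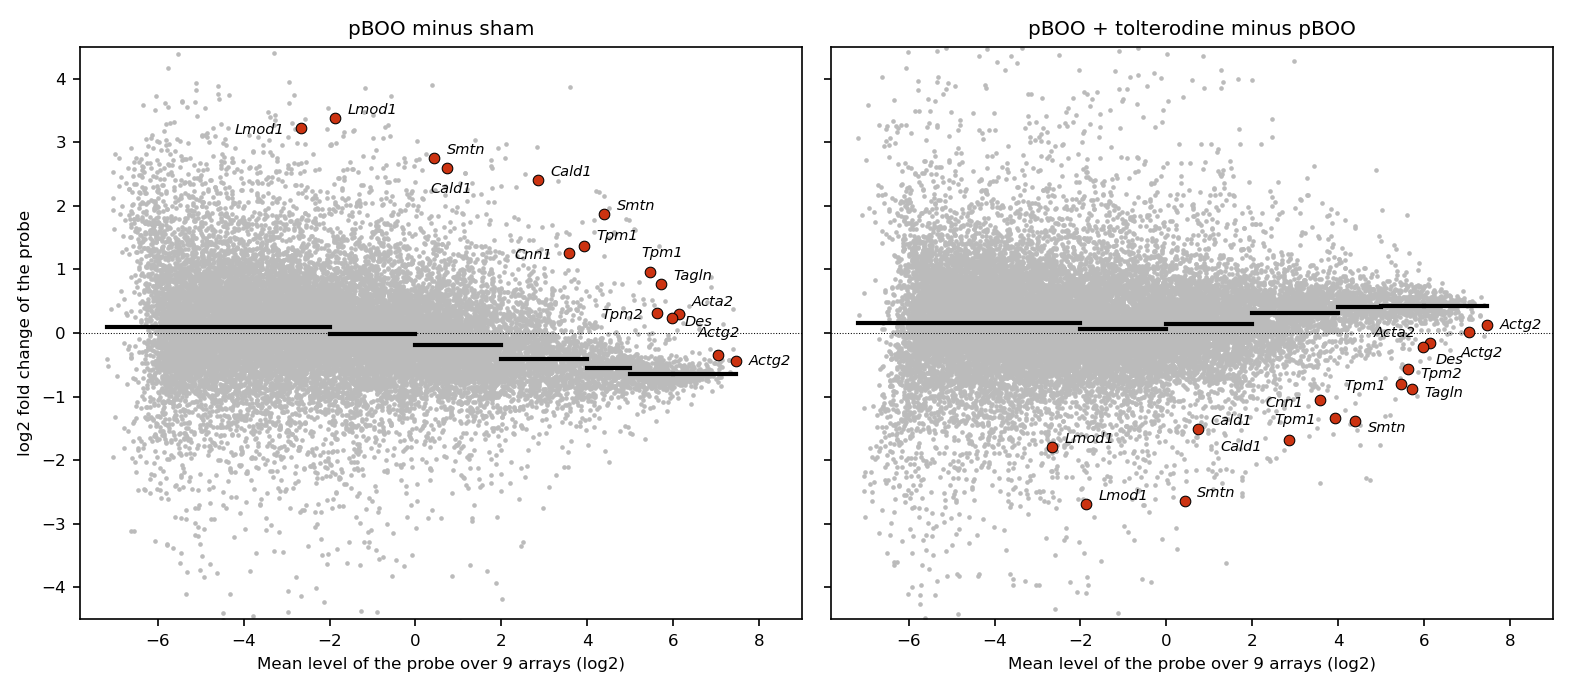
Change of each probe (vertical axis, log2 fold change, flagged spots kept) against its mean level over 9 arrays (horizontal axis, log2), for pBOO minus sham and for tolterodine minus pBOO. Grey points are the probes kept, red points the 15 probes of the members, and black lines the median in classes of level; a few points beyond the axis range are not drawn. The black line falls from 0.10 to -0.64 with brightness in the left panel, and every red point lies above it there and below it in the right panel.

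Unscaled intensities and their ranks give the same comparison without any scaling factor. The Acta2 spot read 55505, 43741 and 38591 intensity units in sham and 107180, 77943 and 81578 in pBOO, and with tolterodine 59211, 61199 and 48299. Ranked among the 42877 non-control spots of its array, with 1 the brightest, it was at 254, 438 and 376 in sham, at 54, 94 and 71 in pBOO, and at 243, 253 and 210 with tolterodine. The pBOO arrays thus gave this spot a higher place than any other array. Desmin moved from ranks 253, 519 and 420 to 101, 117 and 102, and Tpm2 from 593, 448 and 487 to 148, 192 and 175. The dimmer Actg2 probe went from 21, 26 and 23 to 10 on each pBOO array. Its brighter probe was at 3, 3 and 1 in sham and 3, 3 and 2 in pBOO, where little room is left above it. The 75th percentile used for scaling was 951 to 1441 intensity units on the pBOO arrays, above the 587 to 820 of sham, and 523 to 1076 with tolterodine, which overlapped pBOO. Its part in the member values was not tested beyond the settings that follow.

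Under quantile normalization, which gives all arrays 1 distribution, Acta2 rose by 0.90 (adjusted p = 0.00113), Tpm2 by 0.89 (adjusted p = 0.000366) and Des by 0.84 (adjusted p = 0.00339). Cyclic loess, a scaling that removes brightness trends between arrays and was added after the data had been seen, gave 1.01 (adjusted p = 0.000745), 0.97 (adjusted p = 0.000266) and 0.93 (adjusted p = 0.00224). Actg2 turned from -0.44 to -0.04 under quantile normalization and to 0.41 (adjusted p = 0.021) under cyclic loess. The count of members that rose was 9 of 10 under quantile normalization and 10 of 10 under cyclic loess, with medians of 1.43 and 1.51. Of all 11636 genes, 2399 and 2464 rose under these scalings, with medians of -0.03 and -0.01. Scaling by the array median, which applies 1 factor to all spots as the 75th percentile does, left 6 of 10, beside 2071 of all 11636 genes. The rises of Lmod1, Smtn, Cald1, Cnn1, Tpm1 and Tagln were found under each of these scalings.

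**Figure D4:**
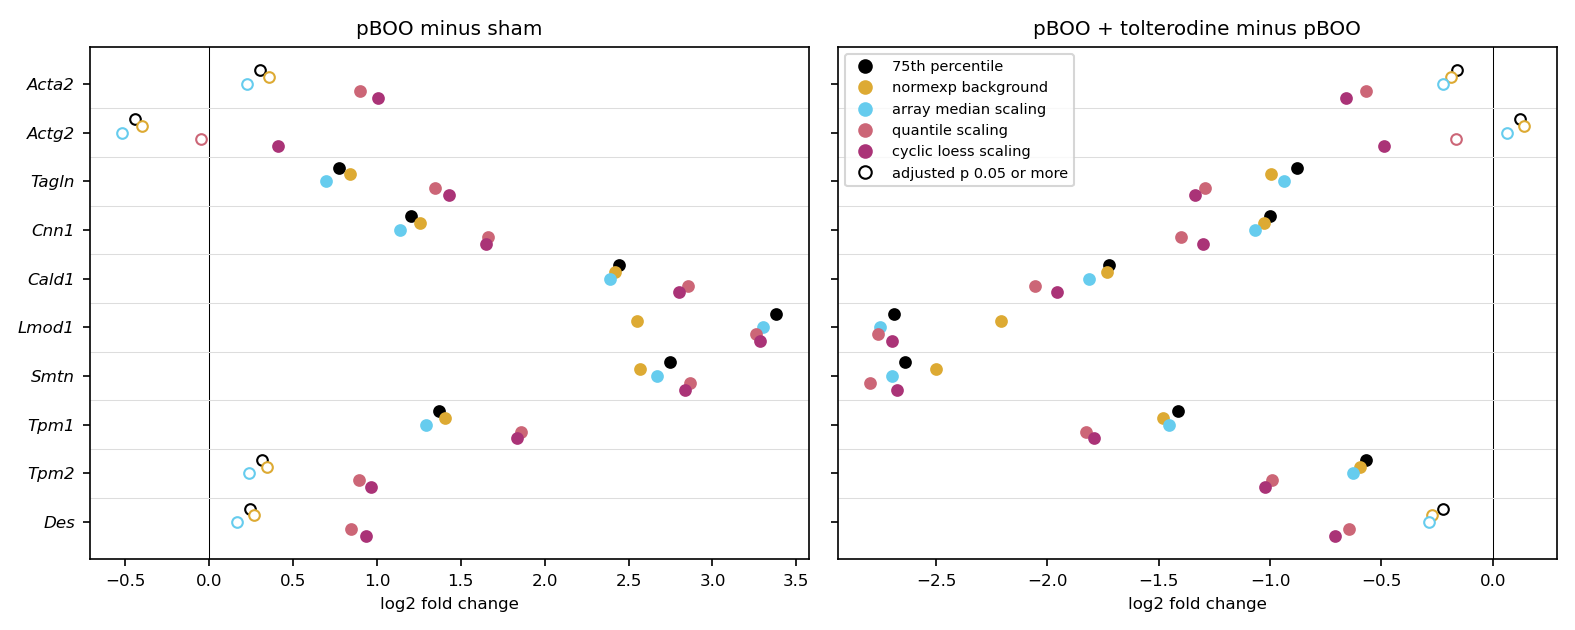
Log2 fold change of each member (horizontal axis) under 5 ways of background correction and scaling, for pBOO minus sham and tolterodine minus pBOO. Filled symbols passed the adjusted p threshold of 0.05; Actg2, Tagln, Tpm2 and Des are shown with flagged spots kept and the other members with them removed. Acta2, Tpm2 and Des pass in pBOO minus sham under quantile and cyclic loess scaling and not under the 75th percentile, and Actg2 changes sign.

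With tolterodine, the same regulators were lower than in untreated obstruction. Leiomodin, smoothelin, caldesmon, tropomyosin 1 and calponin fell, with Lmod1 at 0.155, Smtn at 0.161, Cald1 at 0.302 and Tpm1 at 0.376 of the pBOO level. With flags kept, transgelin and tropomyosin 2 fell as well. With flagged spots removed 5 of 6 members fell and 0 rose, with a median change of -1.57 against 0.11 over all genes, of which 15.3% fell and 26% rose. With flagged spots kept 7 of 10 fell and 0 rose, with a median of -0.84 against 0.12, and again 15.3% of all genes fell, while 26.6% rose. The groups did not overlap for the 7, against 21.5% of all genes lower without overlap. This comparison shares the pBOO arrays with the one above, so the values of both are set side by side and were not correlated.

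Lmod1 fell by 2.69 on its brighter probe (SE 0.23, adjusted p = 5.41e-05), after a rise of 3.38 from sham to pBOO. Its dimmer probe fell by 1.80 (SE 0.17, adjusted p = 9.48e-05 over all probes), to 0.288 of the pBOO level. The dimmer Smtn probe read -0.57, -0.67 and -0.01 with tolterodine and fell by 2.64 (SE 0.28, adjusted p = 0.000149), whereas the brighter one read 3.98, 3.80 and 4.50 and fell by 1.39 (SE 0.25, adjusted p = 0.00243). Cald1 read 2.49, 2.63 and 2.45 and fell by 1.73 (SE 0.13, adjusted p = 5.34e-05). In these 3 genes the tolterodine arrays lay 1 log2 unit or more below every pBOO array, apart from the brighter Smtn probe.

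Cnn1 stood at 3.24, 3.09 and 3.52 with tolterodine and fell by 1.00 (SE 0.20, adjusted p = 0.00585). Tpm1 read 3.54, 3.66 and 3.30 on its dimmer probe, with the second spot flagged, and fell by 1.41 (SE 0.13, adjusted p = 0.000153). Its brighter probe read 5.21, 5.19 and 5.32 and fell by 0.80 (SE 0.11, adjusted p = 0.000671). Tagln, at 5.23, 5.18 and 5.75, fell by 0.88 (SE 0.18, adjusted p = 0.00524), and Tpm2, at 5.33, 5.14 and 5.61, fell by 0.57 (SE 0.16, adjusted p = 0.0198). The call for Tpm2 was lost without pBOO 3 (-0.52, adjusted p = 0.0737), without tolterodine 1 (-0.55, adjusted p = 0.0615) or without tolterodine 2 (-0.46, adjusted p = 0.0665).

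The values of Acta2 (6.04, 5.83 and 6.53 with tolterodine), Actg2 (7.35, 7.05 and 7.80) and Des (5.84, 5.62 and 6.28) overlapped those of pBOO. Their differences were -0.16 (adjusted p = 0.535), 0.12 (adjusted p = 0.672) and -0.22 (adjusted p = 0.402), the latter pair with flags kept. Here too brightness and change went together: the median probe at a level of 6 or above was 0.42 higher with tolterodine than in pBOO, and the 3 genes lay below it. Under quantile normalization Acta2 fell by 0.57 (adjusted p = 0.00978) and Des by 0.64 (adjusted p = 0.0117), and Actg2 was at -0.16 (adjusted p = 0.247). Under cyclic loess Acta2 fell by 0.66, Des by 0.71 and Actg2 by 0.49 (adjusted p = 0.00973).

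In obstruction with tolterodine set against sham, caldesmon rose, by 0.71 (SE 0.12, adjusted p = 0.00514) on the brighter probe, and it was the 1 call among 6 members with flags removed and among 10 with flags kept. Over all genes 17.8% rose and 6.58% fell in this comparison with flags removed, and 17.5% rose and 6.54% fell with flags kept. The dimmer Cald1 probe, at 0.46, 0.53 and 0.79 with tolterodine, was 1.08 above sham (SE 0.18, adjusted p = 0.00444 over all 22144 probes, of which 23.5% were called). So the caldesmon signal lay between sham and pBOO on both probes, and on neither did the tolterodine arrays overlap those of another group. Averaging the probes before the fit, with flagged spots removed, gave 0.90 with a larger spread, which missed the threshold (adjusted p = 0.0656). In that average pBOO 2 had the dimmer Cald1 probe alone, at 1.97, since its brighter spot, at 4.14, was flagged. The pBOO spread there thus mixes the levels of 2 probes, and the fit uses 1 spread for all groups. The same averaging put Lmod1 past the threshold, at 1.06 (adjusted p = 0.00664).

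The Lmod1 probes differed here. The brighter one was 0.69 above sham (SE 0.23, adjusted p = 0.0617), and the dimmer one, at -4.42, -4.03 and -4.20 in sham and -2.92, -2.87 and -2.56 with tolterodine, was 1.43 above it (SE 0.17, adjusted p = 0.000995 over all probes). Neither probe had overlapping groups. The sham spots of the dimmer probe were dim, at 31.9 to 50.2 intensity units where the local background was 18.5 to 21. The brighter probe passed without sham 2 (0.91, adjusted p = 0.0297) and without pBOO 1 (0.69, adjusted p = 0.0497). Over all 22 alternatives the Lmod1 value ranged from 0.34 to 1.06, with adjusted p up to 0.365, and 3 of them passed. Of the other members, Tpm1 was at -0.04 (95% interval -0.35 to 0.27), Smtn at 0.11 (-0.53 to 0.74), Cnn1 at 0.21 (-0.21 to 0.62) and Acta2 at 0.14 (-0.30 to 0.58). With flags kept, Tagln was at -0.10 (-0.52 to 0.31), Des at 0.02 (-0.44 to 0.48), Tpm2 at -0.25 (-0.61 to 0.11) and Actg2 at -0.32 (-0.81 to 0.17). Each interval holds 0 and also changes on either side of it, so equal levels are not shown.

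Arrays that share a scan time in their headers are taken here as a slide. All 3 pBOO arrays lay on 1 slide with sham 1, tolterodine 1 and 2 lay on another with sham 2 and sham 3, and tolterodine 3 lay on its own, so no slide holds both pBOO and tolterodine. With the slide as a fixed block, sham 1 is therefore the only link from pBOO to the other groups, and tolterodine 3 adds nothing. The values with that block in both pBOO comparisons rest on that single sham array. Within the slide of the pBOO arrays sham is a single array, so the sizes of change are given here without calls. There pBOO minus sham was 3.78 for Lmod1, 3.38 for Smtn, 2.28 for Cald1, 1.49 for Tpm1, 1.03 for Tagln and 0.92 for Cnn1, while Acta2 was at 0.09 and Des at -0.06. With the slide as a fixed block, Tpm2 was at 0.58 in pBOO minus sham, given without a call since it too rests on sham 1. Cnn1 with tolterodine against pBOO was at -0.69 with that block and missed the threshold (adjusted p = 0.0583). The other 4 members that fell with flags removed stayed below 0, with changes of -3.79 for Smtn, -3.34 for Lmod1, -1.47 for Tpm1 and -1.46 for Cald1.

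Within the slide that holds sham 2, sham 3, tolterodine 1 and tolterodine 2, Cald1 rose by 0.83 (adjusted p = 0.00382) with tolterodine. On that slide the dimmer Smtn probe fell by 0.41 (adjusted p = 0.0342), while the brighter one, unflagged on these arrays, read 3.82 and 3.77 in sham and 3.98 and 3.80 with tolterodine, which overlap. Also on that slide, Tagln fell by 0.41 (adjusted p = 0.0126), Tpm2 by 0.51 (adjusted p = 0.0137) and Actg2 by 0.58 (adjusted p = 0.028). None of these 4 falls passed in the fit over all arrays, where Smtn was above 0. Sham 1, left out there, had the lowest sham level of Smtn, Tagln, Tpm2 and the brighter Actg2 probe. Tolterodine 3, also left out, had the highest tolterodine level of all 4 genes. The part of either array in these falls was not tested.

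Lists of related genes of the actin cytoskeleton are given as counts with flagged spots removed, beside the 20.8% of all genes that rose and 21.7% that fell in pBOO. Of 3 tested among 4 other actins, 2 rose in pBOO: Acta1, the skeletal alpha actin, by 0.92 (SE 0.15, adjusted p = 0.00131), and Actb, the cytoplasmic beta actin, by 0.65 (SE 0.17, adjusted p = 0.0153). With flags kept all 4 were tested, and 2 rose and 1 fell, beside 20.5% and 22.9% of all genes. The Actb call was lost without sham 2, sham 3, pBOO 2 or pBOO 3 (0.52 to 0.63, adjusted p from 0.0503 to 0.0562) and with the slide as a block (0.30, adjusted p = 0.161). Of 9 tested among 14 other tropomyosins, calponins, transgelins, leiomodins and tropomodulins, 1 rose and 3 fell, with a median of -0.32. Cnn3, the calponin of non-muscle cells, rose by 0.48 (SE 0.09, adjusted p = 0.00333), whereas Tmod3, a cap of the pointed filament end, fell by 0.98 (SE 0.15, adjusted p = 0.00108) and Tpm3, a tropomyosin with non-muscle forms, by 0.77 (SE 0.15, adjusted p = 0.00401). With all probes of Tpm3 averaged its value was -2.01 and did not pass (adjusted p = 0.106).

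Of 11 tested among 18 genes of dense bodies and adhesion plaques, where thin filaments are anchored, 7 rose and 1 fell in pBOO, with a median of 1.15. The largest rises were those of Csrp1, an alpha-actinin partner, by 2.16 (SE 0.34, adjusted p = 0.00125) and Vcl, vinculin, by 1.83 (SE 0.21, adjusted p = 0.000265). The 1 fall was Actn4, a non-muscle alpha-actinin, by 0.61 (SE 0.19, adjusted p = 0.0286). With tolterodine 3 of the 11 rose and 7 fell against pBOO, with a median of -0.83, while 26% of all genes rose and 15.3% fell. The other tropomyosins and their relatives went the other way there, with 4 rises and 1 fall among 9 and a median of 0.51. The other actins had 0 rises and 1 fall among 3. The lists of intermediate filaments and of filament turnover had 0 rises and 2 falls among 5, and 2 rises and 3 falls among 16. Among 5 tested genes of intermediate filaments and their linkers, 2 rose and 0 fell in pBOO: Synm, synemin, a partner of desmin, by 2.33 (SE 0.18, adjusted p = 3.65e-05) and Plec, plectin, a linker, by 0.71 (SE 0.22, adjusted p = 0.0276). The Actn4 call was lost without sham 2, sham 3, pBOO 2 or pBOO 3 (-0.51 to -0.60, adjusted p up to 0.0897). It was also lost under normexp (-0.57, adjusted p = 0.0636), quantile (-0.43, adjusted p = 0.0585) and cyclic loess scaling (-0.40, adjusted p = 0.105). The Plec call was lost without any 1 of these arrays or pBOO 1 (0.64 to 0.75, adjusted p up to 0.0798), and under array median scaling (0.63, adjusted p = 0.0501).

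Among 16 tested genes of actin filament turnover, 7 rose and 2 fell in pBOO, with a median of 0.16. Cfl2, the muscle cofilin, which severs filaments, rose by 2.24 (SE 0.25, adjusted p = 0.000243), and Cap2, a cyclase-associated protein, rose by 1.78 (SE 0.20, adjusted p = 0.000234). Tmsb4x, thymosin beta 4, which binds actin monomers, fell by 1.02 (SE 0.19, adjusted p = 0.00572), with 1 pBOO spot removed. Arpc3, a subunit of the branching complex Arp2/3, fell by 0.98 (SE 0.10, adjusted p = 0.000174). Tmsb4x is a bright probe, and its fall was smaller and did not pass under quantile and cyclic loess scaling.

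**Figure D5:**
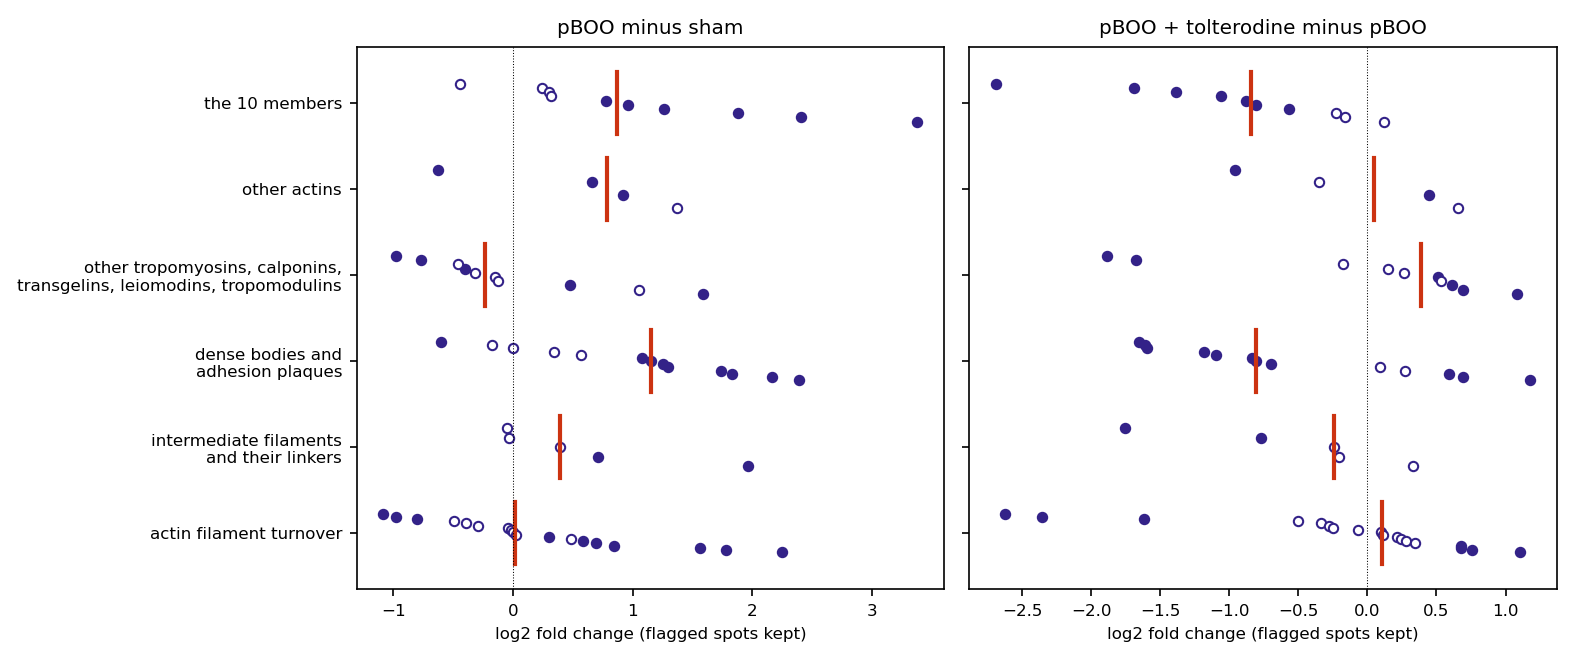
Log2 fold changes (horizontal axis, flagged spots kept) of the members and of 5 lists of related genes, 1 point per gene, with filled points past the adjusted p threshold of 0.05 and a red bar at the median of each list. In pBOO minus sham the medians of the members (0.87), of dense bodies and adhesion plaques (1.15) and of the other actins (0.79) lie well right of 0. Those of intermediate filaments (0.40) and of filament turnover (0.01) lie nearer to it, and the list of other tropomyosins and their relatives is centred left of it (-0.24).

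By the likeness of levels over the 9 arrays, each gene centred on its own mean, the closest of 10101 other genes could be named for Acta2, Lmod1 and Smtn, which have a value on every array. The closest to Lmod1 was Sspn, sarcospan of the dystrophin complex, with a root mean square difference of 0.132, against 1.55 for the median gene. For Smtn it was Myom1, myomesin 1, at 0.158, against 1.38. Acta2 was closest to Nosip at 0.0851, against 0.413. The closest of so many genes lies below the median gene by construction, so this contrast tests nothing. Next in order were Kirrel3 for Lmod1 (0.257), Nrxn2 for Smtn (0.178) and Ing4 for Acta2 (0.113).

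Of the 7 markers of smooth muscle outside the member list that were tested with flagged spots removed, 5 rose, 0 fell and 2 did not pass in pBOO against sham, and 5 fell, 1 rose (Itga8, by 1.49) and 1 did not pass with tolterodine against pBOO. Over all genes 20.8% rose and 21.7% fell in pBOO, and 15.3% fell and 26% rose with tolterodine against pBOO. Over 7 of the 8 markers measured, the mean level was 0.17 to 0.76 on sham arrays, 1.49 to 1.76 on pBOO arrays and 0.83 to 0.87 with tolterodine, and Myh11, Mylk and Myocd were well above background on all arrays. Urothelial markers (8 of 10 measured) went the other way from sham to pBOO, from 4.65 to 4.77 down to 3.33 to 4.20, and were at 3.92 to 4.06 with tolterodine. Fibroblast markers (7 of 8) were at 0.30 to 0.70 in sham, 1.40 to 1.51 in pBOO and 1.25 to 1.48 with tolterodine. Macrophage markers (8 of 8) were at 0.23 to 0.60, -0.31 to -0.23 and 1.56 to 1.66. Markers of striated muscle (7 of 12) lay at -0.54 to 0.15 in sham, 0.24 to 0.51 in pBOO and -0.75 to -0.06 with tolterodine. With flagged spots removed, 2 of these 7 rose and 1 fell in pBOO, and 5 fell and 1 rose with tolterodine against pBOO. Myh2, Ckm, Tnnt1, Tnnt3, Tnni2, Tnnc2 and Acta1 of that list were well above background on all 9 arrays, whereas Myh1, Myh4 and Myh7 were on 0. The part of these shifts in the member values was not tested. In RNA from whole bladder, more smooth muscle cells in the sample and more of these transcripts in each cell cannot be told apart.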

How the data were processed

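The authors deposited scanner output for each array. Its processed signal is, per the file headers, an intensity that Feature Extraction 11.0.1.1 corrected for background and for spatial trends, with no normalization between arrays; the submitters' processing notes name Agilent Feature Extraction 9.1. The deposited median signal and local background are intensities too. The deposited quality flags are of another kind, 0 or 1. The build used for the array's annotation differs from GRCr8, so probes carry no coordinates here.

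Log2 intensities minus the 75th percentile of 42877 non-control spots per array were fitted in limma 3.58.1 (R 4.3.3) over all 9 arrays, with 1 coefficient per group, two-sided. Flagged spots (non-uniform or population outlier, in spot or background) were missing in the first fit and kept in the second. A probe needed to be well above background on at least 3 arrays (22144 probes) and to have 2 values per group, and the brightest such probe stood for its gene. The arrays limit the precision: the median SE of a change was 0.171, 72.1% to 80.1% of spots were well above background and 4.66% to 6.31% were flagged. Named were the members, 2 largest rises and falls per related list in pBOO, and the 2 nearest genes by level. The test was checked on simulated data. Alternatives covered flags, background, scaling, filters, probes, slide, a replicate block and left-out arrays. The members and lists were chosen with earlier results of these data known. Deviations from the group mean on same-numbered arrays of different groups had r between -0.080 and 0.178. Differently numbered arrays were not compared, so these values do not settle whether arrays were paired.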

Additional observations from a re-analysis of the deposited data

How the results depend on the processing

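Of the alternatives for single members, 574 values kept their direction and side of the threshold, 21 newly passed it, 5 no longer did and 32 changed sign; the cause was not tested. With flagged spots removed, 4695 genes changed in pBOO minus sham, 4563 in tolterodine minus pBOO and 2695 in tolterodine minus sham, and with them kept 5050, 4879 and 2799. Background correction by normexp gave 3026, 3000 and 961, and with flags kept 3360, 3235 and 1028. Within the slide of the pBOO arrays 2859 and 3126 (flags kept) changed. For tolterodine minus sham, the slide as a fixed block gave 4484 and 4786, as a random block 4276 and 4514, and within 1 slide 5850 and 6216. Leaving out 1 array gave 3406 to 5143, 3396 to 5336 and 1413 to 3784 genes, and with flags kept 3740 to 5522, 3621 to 5653 and 1429 to 3968. The lows of tolterodine minus sham came without sham 2 (1614 and 1650), sham 3 (1413 and 1429), tolterodine 1 (1569 and 1597) or tolterodine 2 (1461 and 1489).

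The members past the threshold were 3 of 4 in both pBOO comparisons where a value on every array was required, since 2 fewer could be tested. In pBOO minus sham with flags kept they were 10 under cyclic loess. In tolterodine minus sham they were 2 with the slide as a fixed block, 2 within a slide and 1 to 2 without an array. With flags kept they were 2 with probes averaged, 3 and 2 with the slide as a fixed or random block, 4 within a slide, and 1 to 2 without an array.

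The share of changed genes that were higher was 48.9% in pBOO minus sham, 39.0% under normexp (median of all genes -0.04 and -0.14). In tolterodine minus pBOO it was 62.9% and 52.7% under quantile scaling (medians 0.11 and 0.01). In tolterodine minus sham it was 73.0%, 58.2% under quantile, 49.9% under array median and 62.6% under cyclic loess scaling.

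Signs turned as follows. In pBOO minus sham, Actg2 was 0.41 under cyclic loess, and Des -0.061 with the slide as a fixed block and within the slide. In tolterodine minus pBOO, Actg2 was -0.16 under quantile, -0.49 under cyclic loess, -0.26 and -0.047 with the slide as a fixed or random block, and -0.077 to 0.30 without an array. Des was 0.051 and 0.0025 with these blocks, Actb 0.11 and Csrp1 0.23 with the fixed block. In tolterodine minus sham, Smtn was -0.032 under array median scaling, -0.41 with the fixed block and within a slide, -0.17 with the random block and -0.21 to 0.32 without an array. Tpm1 was 0.15 with flags kept, 0.029 under quantile, 0.048 under cyclic loess, 0.023 with the fixed block and within a slide, and -0.16 to 0.081 without an array. Tagln was 0.055 under quantile and 0.094 under cyclic loess. Des was -0.0071 under normexp, -0.12 under array median, -0.010 with the fixed block and within a slide, and -0.16 to 0.17 without an array. Acta2 was -0.057 to 0.29 without an array.

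With the replicate number as a block, 5 of 6 and 6 of 10 members (flags kept) rose in pBOO and 4349 and 4783 genes changed; the block changed no call of a member. The 3 arrays of each group limit the precision, and 0 spots were saturated.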
